A study of Mus musculus with 10 samples.

Results

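The 38 genes described here encode the proteins of synaptic vesicles and of the presynaptic release and retrieval machinery: calcium sensors, SNARE proteins and their chaperones, vesicle membrane proteins, active zone scaffolds and endocytic proteins. They were taken by name from the array's annotation, as every probe set whose gene symbol field holds 1 of the 38 symbols. That gave 105 of 45101 probe sets, of which 1, assigned to Vamp1, also carries a further symbol. All 38 genes had at least 1 probe set of their own, out of 18193 genes with such a probe set. The arrays compared 5 Nkx2.2-/- mice (numbered 11, 12, 22, 29 and 43) with 5 littermate wild-type mice (14, 15, 16, 18 and 21), all C57BL/6 and aged 1.5 to 2 days, with 1 array a mouse. RNA came from pons, medulla and rostral spinal cord dissected from 20 µm sections. The labels describe the mutant group only by its genotype and do not give litter or sex for each mouse. Values are log2 expression values, and in every list of 5 they follow the order of mouse numbers above.

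At a nerve terminal, vesicles are filled, tethered at the active zone, primed by Munc13 and RIM proteins and fused when calcium binds a synaptotagmin and the SNARE complex zips up. NSF and SNAP proteins then take the SNAREs apart, and dynamin, amphiphysin, endophilin and synaptojanin retrieve the membrane. Most of these proteins come in families of close relatives whose use differs between brain regions. In the brainstem and spinal cord of adult rodents, Syt2 and Vamp1 are known to be used widely beside Syt1 and Vamp2. In the newborn hindbrain many synapses are still forming.

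Promoter sequences are shown for Vamp1 and Syt2, which had the highest changes of the set, and for Cplx1, whose values by mouse are set beside theirs. They are RefSeq sequences of build GRCm38.p6 and run from 250 bases before to 50 bases after an annotated start, 5′ to 3′ on the gene's strand. The capitals mark GC boxes, GGGCGG on either strand.
Vamp1, chr6:125215331-125215630, plus strand: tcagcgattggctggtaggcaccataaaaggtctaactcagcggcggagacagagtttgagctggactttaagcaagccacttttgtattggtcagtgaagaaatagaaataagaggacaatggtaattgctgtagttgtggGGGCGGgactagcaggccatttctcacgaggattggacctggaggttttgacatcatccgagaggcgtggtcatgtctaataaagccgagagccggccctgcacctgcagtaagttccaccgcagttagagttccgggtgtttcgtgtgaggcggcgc
Syt2, chr1:134646362-134646661, plus strand: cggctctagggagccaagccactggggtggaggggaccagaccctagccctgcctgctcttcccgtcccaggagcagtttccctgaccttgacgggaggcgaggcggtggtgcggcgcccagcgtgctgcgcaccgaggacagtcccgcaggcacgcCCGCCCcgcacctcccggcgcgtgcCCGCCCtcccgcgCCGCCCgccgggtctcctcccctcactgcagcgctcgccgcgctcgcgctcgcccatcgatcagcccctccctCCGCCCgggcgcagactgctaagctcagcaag
Cplx1, chr5:108549978-108550277, minus strand: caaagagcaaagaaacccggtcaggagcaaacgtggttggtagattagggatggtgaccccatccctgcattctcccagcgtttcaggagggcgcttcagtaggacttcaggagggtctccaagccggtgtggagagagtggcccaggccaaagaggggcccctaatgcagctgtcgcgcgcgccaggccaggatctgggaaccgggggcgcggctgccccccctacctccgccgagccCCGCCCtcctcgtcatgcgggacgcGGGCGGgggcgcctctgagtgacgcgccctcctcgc
The Syt2 sequence is that of the upstream of its 2 listed starts. In all, 30 of the 38 genes were searched, with 40 promoters. A GC box stood in 25 of these 40 promoters (62.5%), against 35.7% of all 32851. By gene it stood in 23 of the 30, some of which have several starts. Also searched were TATAAA, in 3 of the 40 (7.5%, against 13.6%), and TGACGTCA, in 2 (5%, against 1.79%). A match is only a stretch of letters, and the array values say nothing of binding there.

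The genotype labels were checked on Nkx2-2, the gene removed in the mutants, which lay at 4.73, 4.34, 4.24, 4.58 and 4.64 in Nkx2.2-/- mice and at 6.88, 6.47, 6.49, 6.51 and 6.42 in wild-type mice. The groups did not overlap, and the log2 change was -2.05 (SE 0.111, limma with Benjamini-Hochberg adjustment over 45037 probe sets, adjusted p = 7.23e-05). It is not known here whether its probes fall inside the deleted part. Array medians ran from 5.07 to 5.12. All 13 pan-neuronal genes examined as a check of the tissue, among them the neuronal tubulin Tubb3 and the neurofilament Nefl, had a wild-type mean above 90% of probe sets. Of 6 measured forebrain and midbrain genes, 4 lay below the middle of the array. On the arrays of Nkx2.2-/- mouse 43 and wild-type mouse 14 the 5 prime control signal of Gapdh lay below its 3 prime signal by more than on any other, with differences of -3.78 and -2.13, against -0.13 to 0.32 on the other 8. Of the checked lists, 6 of 9 myelin genes and 3 of 7 serotonergic genes fell in Nkx2.2-/- mice, by the brightest probe set of each gene in the fit over all probe sets, and none rose (limma with Benjamini-Hochberg adjustment). In RNA of whole tissue, fewer cells of a type and less RNA per cell cannot be told apart.

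In the wild-type tissue, which held rostral spinal cord beside pons and medulla, most of the release machinery was bright. Of the 38 genes, 28 had a brightest probe set whose wild-type mean lay above 90% of all probe sets, 9 lay between the middle of the array and that mark, and 1, Sv2c, lay below the middle. These shares place a probe set on the array. They do not rank transcripts against each other, because the signal of a probe set depends on its probes. Over the 105 probe sets, 37 lay above 90% of probe sets and 22 below the middle, so several genes had dim probe sets beside a bright one.

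Among the calcium sensors, Syt1, the fast sensor of synchronous release, lay at 9.80, 9.32, 9.51, 9.40 and 9.38 in the wild-type mice, above 98.1% of probe sets on average. Syt2, the fast sensor of many brainstem and spinal synapses and of the neuromuscular junction, lay at 7.16, 7.08, 6.98, 7.03 and 7.15, above 85.7%. Its other 2 probe sets were dim, above 40.8% and 39.5% of probe sets. The 5 wild-type mice spanned less than 0.2 on the log2 scale in the brightest Syt2 probe set.

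Syt7, a slow sensor with high calcium affinity that serves asynchronous release, lay at 8.77, 8.85, 8.56, 8.82 and 9.03 (above 96.4%). Syt11, a synaptotagmin that does not bind calcium, lay at 9.53, 9.64, 9.47, 9.52 and 9.69 (above 98.3%), and 4 of its 5 probe sets were above 90% of probe sets. Syt4, found on dense-core vesicles, lay at 8.26, 8.21, 8.51, 8.26 and 8.06 (above 94.4%). These synaptotagmins outside the fast class were thus well represented, each by at least 1 bright probe set. Syt3 lay at 6.25, 6.54, 6.55, 6.46 and 6.57 (above 78.4%) and Syt5 at 5.89, 6.27, 6.26, 6.40 and 6.24 (above 74.6%), each read by 1 probe set. Doc2b, a high-affinity sensor linked to spontaneous release, lay at 7.44, 7.24, 7.12, 7.18 and 7.18 (above 87.2%).

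All 8 genes of the SNARE group had a probe set above 90% of probe sets in wild type. Snap25, the membrane SNARE with 2 helices in the complex, lay at 10.34, 9.97, 10.36, 10.02 and 10.06 (above 99.0%), and its other probe set was dim, above 30.1%. Stx1a, syntaxin 1A, its partner on the plasma membrane, lay at 9.25, 9.31, 9.14, 9.29 and 9.42 (above 97.7%). The SD between wild-type mice was 0.184 for Snap25 and 0.0999 for Stx1a. Of the vesicle SNAREs, Vamp2 lay at 8.99, 9.47, 9.52, 9.46 and 9.55 (above 98.0%), with mouse 14 lowest. Vamp1 lay at 8.26, 8.14, 8.23, 8.11 and 8.27 (above 94.1%), and its other probe sets were dim. Each vesicle SNARE of this pair thus had a bright probe set in newborn tissue.

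Cplx1 and Cplx2, the complexins that clamp and promote fusion, were each read by 3 probe sets. The brightest of Cplx1 lay at 9.87, 9.75, 9.67, 9.69 and 9.86 (above 98.5%) and that of Cplx2 at 7.49, 7.75, 7.66, 8.02 and 7.95 (above 91.7%). The ATPase Nsf lay at 10.16, 9.71, 9.73, 9.70 and 9.63 (above 98.6%). Its adaptor Napb, the SNAP form of brain, lay at 8.96, 8.91, 8.62, 8.61 and 8.98 (above 96.5%). In Nsf the high value was that of mouse 14, and the other 4 mice lay close together.

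The vesicle membrane group included some of the brightest probe sets and the dimmest gene. Syp, synaptophysin, a major protein of the vesicle membrane, lay at 10.03, 9.99, 9.74, 9.94 and 9.97 (above 98.8%). Its relative Synpr, synaptoporin, lay at 8.13, 7.69, 7.92, 7.59 and 7.68 (above 91.8%). Sypl, the synaptophysin-like protein that is also found outside neurons, lay at 6.33, 6.06, 6.36, 6.30 and 6.16 (above 75.1%), the highest of its 7 probe sets.

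The synapsins, which tether vesicles in the reserve pool, all had a bright probe set. Syn1 lay at 9.84, 9.42, 9.24, 9.50 and 9.50 (above 98.1%), read by its only probe set. Syn2 lay at 8.79, 8.21, 8.33, 8.22 and 8.22 (above 94.8%) and Syn3 at 8.48, 8.18, 8.19, 8.30 and 8.37 (above 94.6%). For these 3 genes mouse 14 was the highest wild-type mouse.

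Of the SV2 proteins, transmembrane glycoproteins of the vesicle, Sv2a lay at 8.74, 9.31, 8.84, 8.89 and 9.17 (above 97.0%) and Sv2b at 7.96, 7.50, 7.53, 7.48 and 7.42 (above 90.3%). Sv2c, known from the basal ganglia and some brainstem nuclei, lay at 4.87, 4.84, 5.03, 4.80 and 4.92 (above 42.0%), and its 1 probe set was the dimmest of the 38. RMA values carry no detection call, so a low signal does not show that the transcript was absent. The vesicle GTPases Rab3a, Rab3b and Rab3c lay at 10.06, 10.18, 10.24, 10.15 and 10.29 (above 99.0%), at 8.06, 7.96, 7.91, 7.81 and 8.02 (above 92.7%) and at 9.54, 8.84, 8.98, 8.95 and 9.05 (above 97.2%). All 3 Rab3 genes of the set thus had a bright probe set, though the brightest of Rab3a, like that of Stx1a, is of a type (suffix _x_at) whose probes can also match other transcripts. Those of Cplx2 and Syn3 (suffix _s_at) can match several transcripts as well. The other Rab3a probe set, without such a suffix, lay above 97.9% of probe sets. The next brightest of Syn3, also without one, lay above 86.7%, so Syn3 passed the 90% mark only by its _s_at probe set.

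At the active zone, Rims1 and Rims2, scaffolds that link vesicles and calcium channels, lay at 8.59, 8.48, 8.25, 8.28 and 8.37 (above 95.0%) and at 6.57, 7.24, 7.22, 7.00 and 7.48 (above 85.9%). Unc13a and Unc13b, the Munc13 priming factors, lay at 6.57, 6.84, 6.49, 6.68 and 6.87 (above 81.3%) and at 7.13, 6.88, 6.72, 6.94 and 6.83 (above 83.7%). The giant scaffolds Bsn (bassoon) and Pclo (piccolo) lay at 8.03, 7.93, 7.66, 7.93 and 8.04 (above 92.5%) and at 7.85, 7.51, 7.29, 7.60 and 7.40 (above 89.9%). Only Rims1 and Bsn of these 6 genes passed the 90% mark, with Pclo just under it, against all 8 genes of the SNARE group. In that group Stx1a and Cplx2 passed only by probe sets that can match other or several transcripts. The next brightest probe sets of these 2 genes lay above 88.1% and 80.0%. This describes probe sets and was not tested.

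The endocytic genes were all above that mark. Dnm1, the neuronal dynamin that cuts vesicles from the membrane, lay at 10.06, 9.96, 9.86, 9.97 and 10.09 (above 98.8%), and Synj1, a lipid phosphatase that uncoats them, at 9.37, 9.32, 9.05, 9.13 and 9.38 (above 97.6%). Amph, amphiphysin, which recruits dynamin, lay at 9.06, 8.62, 8.67, 8.66 and 8.68 (above 96.2%), and Sh3gl2, endophilin A1, at 9.23, 8.47, 8.36, 8.61 and 8.51 (above 95.9%). In Amph and Sh3gl2 mouse 14 stood above the other 4 wild-type mice.

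**Figure D1:**
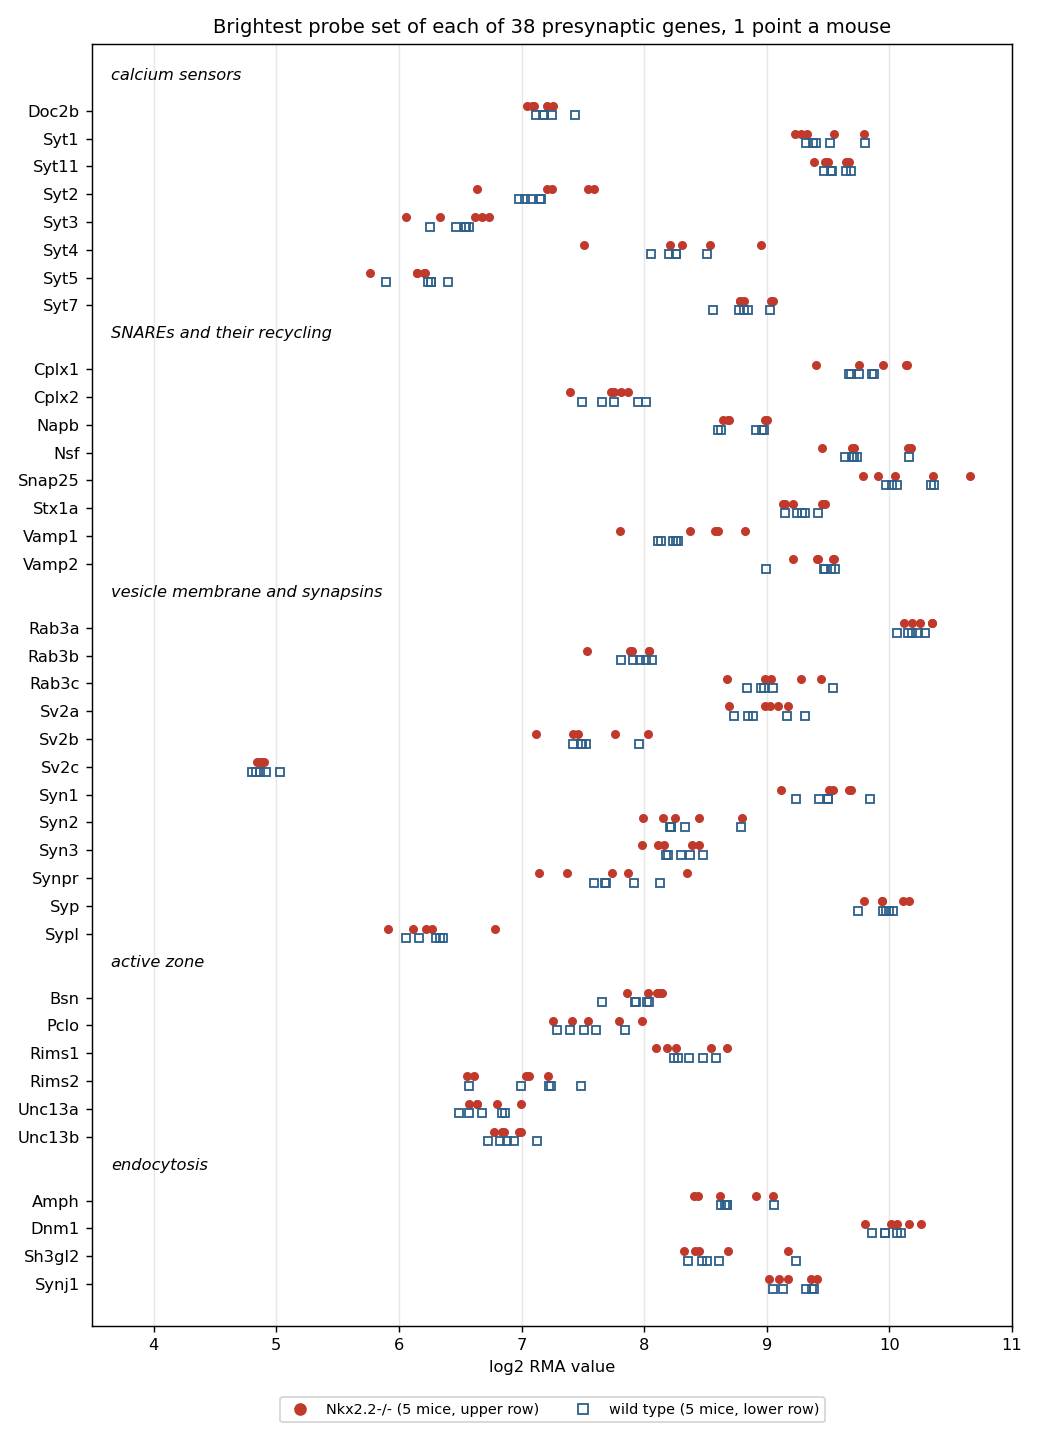
Log2 RMA value (horizontal axis) of the brightest probe set of each of the 38 genes, grouped by role, with filled red circles for the 5 Nkx2.2-/- mice and open blue squares under them for the 5 wild-type mice. The groups overlap for all 38 genes, and Sv2c, with wild-type values of 4.80 to 5.03, is the dimmest.

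The loss of Nkx2.2 was accompanied by no called change in these genes. In the fit over all probe sets, 0 of 105 passed in either direction (limma, Benjamini-Hochberg adjusted p of at least 0.9997), where 0.0511% of all probe sets did. With 1 probe set a gene, 0 of the 38 genes passed, where 0.0605% of genes did. An unadjusted limma p under 0.05 was reached by 2 of 105 probe sets (1.90%), against 3.43% of all probe sets, and a gap between the groups by 1 (0.952%), against 0.757%. By sign 54 were higher and 51 lower. The median log2 change was 0.0040, against 0.0010 over all 45037 probe sets. Single changes ran from -0.25 to 0.23.

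The data also bound what could have been missed. The unadjusted 95% interval of the log2 change stayed between -0.5 and 0.5 for 95 of 105 probe sets and between -1 and 1 for all 105, so in this fit a 2-fold difference lay outside every interval. The lowest bound was -0.74 and the highest 0.57. Another fit had the mean of spinal Hox genes, taken as a measure of caudal tissue, as a covariate. In it the bound was lost for 1 probe set of Cplx2, with an interval of -1.09 to 0.65. The SE of that probe set was 0.39, against 0.28 without the covariate. The Hox mean ran from 5.07 to 5.59 in Nkx2.2-/- mice and from 4.95 to 5.12 in wild-type mice, so it partly follows genotype. In the fit without covariates, 33 of the 38 brightest probe sets stayed between -0.5 and 0.5. Dim probe sets compress differences on this scale, so the bounds carry most weight for the bright ones. Array summaries of a gene also cannot show changes in splice forms that the probes do not separate.

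**Figure D2:**
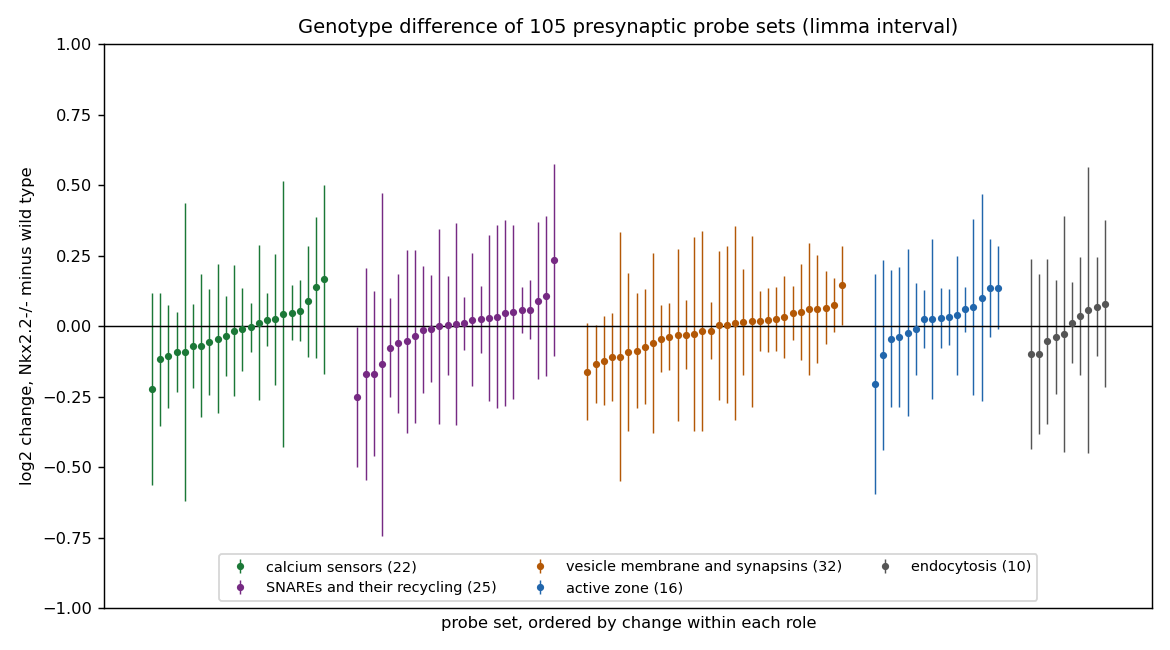
Log2 change, Nkx2.2-/- minus wild type, of the 105 probe sets (points) with unadjusted 95% limma intervals (bars), ordered by size within each role. All intervals stay between -1 and 1 and the changes run from -0.25 to 0.23.

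Of the calcium sensors, 0 of 22 probe sets passed, and the median log2 change was -0.01. Syt1 lay at 9.28, 9.33, 9.23, 9.55 and 9.79 in Nkx2.2-/- mice, against 9.80, 9.32, 9.51, 9.40 and 9.38 in wild-type mice. The change, on the log2 scale, was -0.05 (95% interval -0.31 to 0.22). Over its 4 probe sets the changes ran from -0.11 to 0.06, and the groups overlapped in each.

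Syt2 lay at 6.64, 7.20, 7.59, 7.54 and 7.25 in Nkx2.2-/- mice and at 7.16, 7.08, 6.98, 7.03 and 7.15 in wild-type mice. Mouse 11 was below every wild-type mouse and the other 4 mutants were above them. The log2 change was 0.17 (95% interval -0.17 to 0.50, limma adjusted p = 0.9997), and the dimmer probe sets were at -0.0042 and 0.02. Syt4 averaged 8.30 ± 0.527 in Nkx2.2-/- mice and 8.26 ± 0.163 in wild-type mice (SD, n = 5 each). Mutant mice ran from 7.51 in mouse 22 to 8.95 in mouse 43, a wider span than the wild-type 8.06 to 8.51. Its dimmer probe set had the lowest change of the group, -0.22, with 6.84, 6.84, 6.27, 6.81 and 6.87 in Nkx2.2-/- mice against 6.49, 7.26, 7.13, 6.83 and 7.03 in wild-type mice (limma adjusted p = 0.9997). There the groups overlapped, and mutant mouse 22 was lowest. The change was -0.11 without it, -0.34 without wild-type mouse 14, -0.14 without wild-type 15 and -0.11 with the Hox covariate.

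The 4 Syt7 probe sets had changes from -0.07 to 0.14. The highest of these was in a probe set at 7.34, 7.25, 7.69, 7.42 and 6.97 in Nkx2.2-/- mice, against 7.12, 7.17, 7.14, 7.15 and 7.40 in wild-type mice (limma adjusted p = 0.9997). The groups overlapped there, and mutant mouse 43 was the lowest of all 10. The change was 0.23 without it, 0.05 without mutant 22 and -0.05 with the Hox covariate. Syt11 had changes from -0.09 to 0.02 over 5 probe sets, and its brightest ran over 9.39 to 9.67 in Nkx2.2-/- mice, against 9.47 to 9.69 in wild-type mice. Syt3 (0.01), Syt5 (-0.12) and the 2 probe sets of Doc2b (-0.09 and -0.06) had small log2 changes, and their groups overlapped.

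In the SNARE group 0 of 25 probe sets passed, with a median log2 change of 0.0077. The brightest Snap25 probe set lay at 9.79, 10.04, 9.91, 10.36 and 10.66 in Nkx2.2-/- mice and at 10.34, 9.97, 10.36, 10.02 and 10.06 in wild-type mice, a change of -0.00076 (interval -0.35 to 0.34). The dim one had the lowest change of all 105 probe sets, at 3.96, 4.34, 4.62, 4.57 and 4.46 in Nkx2.2-/- mice and 4.66, 4.56, 4.73, 4.50 and 4.76 in wild-type mice. Its log2 change was -0.25 (unadjusted p under 0.05, limma adjusted p = 0.9997), and the groups overlapped. Without mutant mouse 11, the lowest there, the change was -0.14, and with the Hox covariate it was -0.51 (limma adjusted p = 0.646). The bright probe set of the same gene showed no such difference.

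Vamp1 had the highest change of all 105 probe sets. It lay at 7.80, 8.38, 8.58, 8.82 and 8.60 in Nkx2.2-/- mice, against 8.26, 8.14, 8.23, 8.11 and 8.27 in wild-type mice. As in Syt2, mouse 11 was below every wild-type mouse and the other 4 mutants above them all. The log2 change was 0.23 (SE 0.154, 95% interval -0.11 to 0.57, limma adjusted p = 0.9997), and the dim probe sets were both at 0.06. Vamp2 lay at 9.41, 9.42, 9.55, 9.54 and 9.21 in Nkx2.2-/- mice and 8.99, 9.47, 9.52, 9.46 and 9.55 in wild-type mice, a log2 change of 0.02. Its dimmer probe set was at -0.17. So neither vesicle SNARE had a called change. For Vamp1 the change was larger than the wild-type range of 0.159 but smaller than the mutant SD of 0.388. The difference between Vamp1 and Vamp2 in response was not tested.

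Stx1a, with 9.13 to 9.47 in Nkx2.2-/- mice and 9.14 to 9.42 in wild-type mice, had a log2 change of 0.0034. The 3 Cplx1 probe sets were at 0.11, 0.09 and 0.03 and the 3 of Cplx2 at -0.06, -0.17 and -0.14 in log2 change. The middle one of Cplx2, among the lowest changes of the set, lay at 6.99, 6.58, 6.26, 6.22 and 6.06 in Nkx2.2-/- mice and 6.29, 6.94, 6.50, 6.63 and 6.60 in wild-type mice. Mutant mouse 11 was highest there and mouse 43 lowest, and the groups overlapped (limma adjusted p = 0.9997). The change was -0.31 without mouse 11, -0.08 without mouse 43, -0.08 without wild-type mouse 15 and 0.09 with the Hox covariate, so its sign turned there, with no call in any. For Nsf the changes ran from -0.08 to 0.05 over 4 probe sets, and for Napb from -0.04 to 0.05 over 6.

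Of the vesicle membrane group 0 of 32 probe sets passed, with a median log2 change of -0.0057. Syp lay at 9.79, 9.94, 10.11, 10.16 and 9.94 in Nkx2.2-/- mice and at 10.03, 9.99, 9.74, 9.94 and 9.97 in wild-type mice, a change of 0.05 (interval -0.12 to 0.22), with its dim probe set at -0.11. Syn1 lay at 9.11, 9.51, 9.54, 9.69 and 9.67 in Nkx2.2-/- mice and at 9.84, 9.42, 9.24, 9.50 and 9.50 in wild-type mice, a change of 0.0049 (interval -0.27 to 0.28). For the brightest probe sets of synaptophysin and synapsin I, proteins often used to mark terminals, the differences were thus smaller than the SD between mice.

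Changes ran from -0.09 to 0.06 over the 6 probe sets of Syn2 and from -0.09 to 0.02 over the 3 of Syn3. Synpr was more variable, at 7.14, 7.74, 7.37, 7.86 and 8.35 in Nkx2.2-/- mice and 8.13, 7.69, 7.92, 7.59 and 7.68 in wild-type mice, with a change of -0.11 and an interval of -0.55 to 0.33. Sv2a was at 0.004, Sv2b at -0.02 and 0.06, and Sv2c at -0.02 in log2 change. The Rab3 genes had changes of 0.07 and 0.01 for Rab3a, -0.07 for Rab3b and -0.13 to 0.01 for the 5 probe sets of Rab3c.

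Sypl held the lowest unadjusted p among the 105, in a mid-range probe set at 5.93, 5.73, 5.73, 5.75 and 5.94 in Nkx2.2-/- mice and 5.74, 5.57, 5.81, 5.63 and 5.61 in wild-type mice. Its log2 change was 0.15 (unadjusted p under 0.05, limma adjusted p = 0.9997). The groups overlapped, since wild-type mouse 16 was above 3 of the mutants. The other 6 probe sets ran from -0.16 to 0.08, the lowest of them with the opposite sign, so the gene gave no single direction.

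At the active zone 0 of 16 probe sets passed, with a median log2 change of 0.03. The brightest Rims2 probe set lay at 6.61, 7.04, 7.06, 7.22 and 6.56 in Nkx2.2-/- mice and at 6.57, 7.24, 7.22, 7.00 and 7.48 in wild-type mice, a change of -0.20 (interval -0.59 to 0.19, limma adjusted p = 0.9997). It was -0.12 without mutant mouse 43, -0.13 without mutant 11, -0.34 without wild-type mouse 14, -0.11 without wild-type 21 and -0.50 with the Hox covariate, with no call in any. A dim Rims2 probe set, singled out after its values were seen, was the 1 probe set of the 105 whose groups did not overlap. It lay at 5.12, 5.16, 5.11, 5.16 and 5.46 in Nkx2.2-/- mice and 5.11, 4.97, 5.07, 5.10 and 5.08 in wild-type mice, with a change of 0.14 (limma adjusted p = 0.9997). The lowest mutant and the highest wild-type value both round to 5.11. The separation was lost with quantile normalization and with a common array median. Mouse 43 was far the highest, and the change was 0.07 without it.

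The 5 Rims2 probe sets thus ran from -0.20 to 0.14. Rims1 was at -0.04 and -0.02, Unc13a at 0.04, and Unc13b at -0.01 and 0.03 in log2 change. Bsn lay at 7.86, 8.03, 8.10, 8.14 and 8.12 in Nkx2.2-/- mice and 8.03, 7.93, 7.66, 7.93 and 8.04 in wild-type mice, a change of 0.13, with 0.03 and 0.02 in its dimmer probe sets. Pclo ran from -0.05 to 0.10 over 3 probe sets.

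Endocytic genes had 0 of 10 probe sets past the threshold and a median log2 change of -0.0082. Dnm1 lay at 9.80, 10.01, 10.16, 10.25 and 10.06 in Nkx2.2-/- mice and 10.06, 9.96, 9.86, 9.97 and 10.09 in wild-type mice, with a change of 0.07, and -0.10 in its dim probe set. Amph was at -0.05. Synj1 ran from -0.10 to 0.06 over 4 probe sets and Sh3gl2 from -0.03 to 0.08 over 3.

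The values of Vamp1, Syt2 and Cplx1 by mouse are set side by side. Cplx1, picked after its values were seen, lay at 9.40, 9.75, 10.13, 10.15 and 9.95 in Nkx2.2-/- mice and at 9.87, 9.75, 9.67, 9.69 and 9.86 in wild-type mice. In all 3 genes mutant mouse 11 was the lowest of the 10 mice, and mutant mice 22 and 29 were among the 3 highest. The pattern is not particular to them: 7 of the 38 brightest probe sets had it, the others being those of Stx1a, Syt11, Dnm1 and Rab3b. Its share over all probe sets was not counted. Spinal Hox genes were taken as a mark of how much caudal tissue a sample holds. The mean of 9 of them was 5.07, 5.11, 5.58, 5.59 and 5.25 in the Nkx2.2-/- mice and 4.95, 4.98, 5.12, 4.97 and 5.10 in the wild-type mice. For this Hox mean mice 22 and 29 were the highest of the 10, while mouse 11 lay within the wild-type range. For Vamp1, mutant mouse 43 lay above mouse 22, at 8.60 against 8.58. Of the 9 Hox genes 5 lay below the middle of the array in wild type, and 0 passed in the fit over all probe sets.

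With that Hox mean as a covariate, the log2 changes were -0.10 for Vamp1, -0.18 for Syt2 and -0.19 for Cplx1, so their sign turned. None passed (limma adjusted p = 0.9996, 0.9996 and 0.9996). Without mouse 11 they were 0.39, 0.32 and 0.23 (limma adjusted p = 0.585, 1 and 1). Leaving out the lowest mutant raises the mutant mean by construction. Without mouse 11 the groups did not overlap for 3 of 105 probe sets (2.86%), those of Vamp1 and Syt2 and the dim one of Rims2, against 1.42% of all probe sets. An unadjusted p under 0.05 was then reached by 6 of 105 (5.71%), against 3.24% of all probe sets, and 0 passed after adjustment, where 0.0444% of all did. Without mutant mouse 29, among the highest, the 3 changes were 0.14, 0.09 and 0.04. With the Hox covariate 7 of 105 had an unadjusted p under 0.05 (6.67%), against 4.64%.

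**Figure D3:**
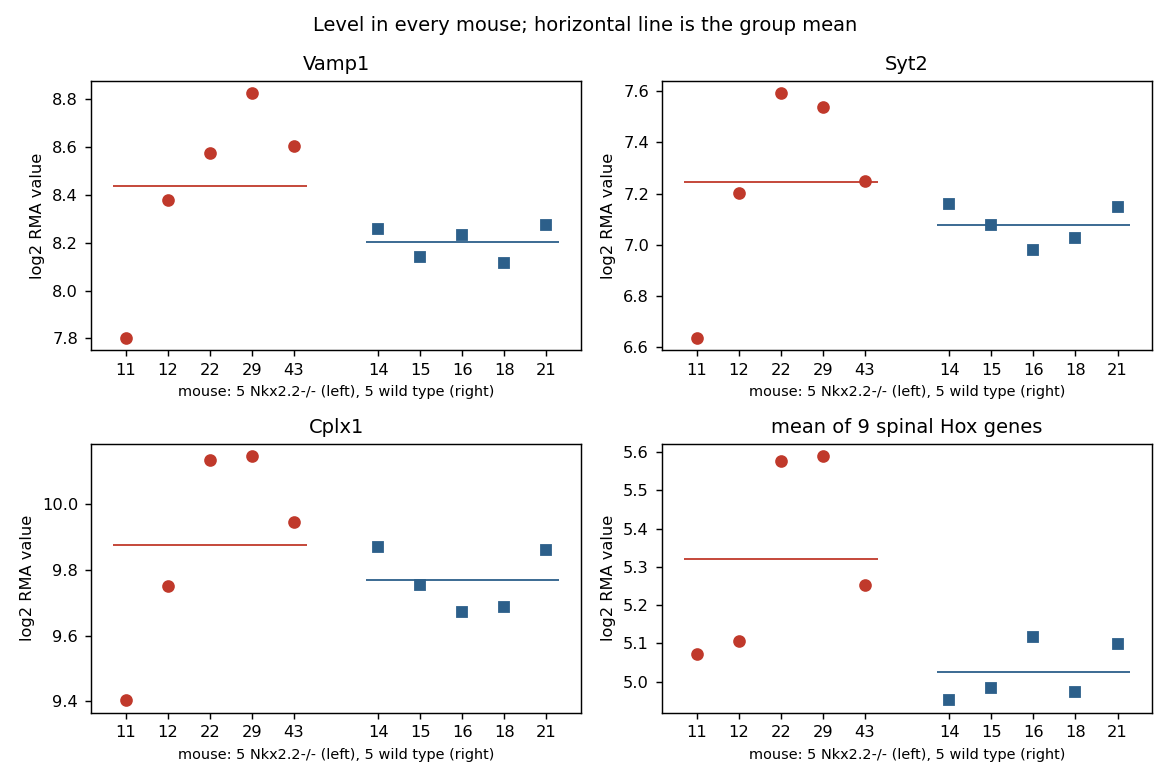
Log2 RMA value in each mouse for the brightest probe sets of Vamp1, Syt2 and Cplx1 and for the mean of 9 spinal Hox genes, with the 5 Nkx2.2-/- mice in red on the left, the 5 wild-type mice in blue on the right, and lines for the group means. Mutant mouse 11 is the lowest of all mice for the 3 genes, and mutant mice 22 and 29 have the highest Hox values, 5.58 and 5.59.

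Mouse 11 was low in many of the 38 brightest probe sets, the lowest of all 10 mice in 19 and of the 5 mutants in 24. Its mean over 13 pan-neuronal genes was also the lowest of the 10, against 10.13 to 10.37 in the other mutants and 10.07 to 10.21 in wild-type mice. The mean of 10 cerebellar genes was 7.17 in mouse 11, against 6.19 to 6.37 in the other mutants and 6.29 to 7.41 in wild-type mice. For 8 proliferation genes it was 5.83, against 5.17 to 5.34 in the other mutants and 5.68 to 6.35 in wild-type mice. Wild-type mouse 18 was the highest of its group in both lists, with a pan-neuronal mean of 10.14. The part of the tissue sampled in the values of mouse 11 was not tested. Among the mutants, mice 29 and 43 were the highest in 13 and 18. In the wild-type group mouse 14 was the highest in 18 and mouse 16 the lowest in 16. How often each mouse was lowest or highest over all probe sets was not counted. These counts thus do not show a trait particular to presynaptic genes. The SD between mice over the 38 brightest probe sets had a median of 0.219 in Nkx2.2-/- mice and of 0.164 in wild-type mice.

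The arrays of mutant mouse 43 and wild-type mouse 14 stood apart in many presynaptic probe sets. In 38 of 105 probe sets (36.2%) both lay outside the range of the other 8 arrays on the same side, against 19.1% of all probe sets. They were above the others in 20, where 10.3% of all probe sets were, and below in 18, where 8.76% were, over 28 of the 38 genes. These are the arrays with the low 5 prime Gapdh signal, 1 in each group. The part of RNA quality in this pattern was not tested. The shares over all probe sets were not matched for signal. Of the 105 member probe sets, 37 lay above 90% of probe sets in wild type and only 22 below the middle. The higher share is thus not read as a trait of presynaptic genes.

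Examples lay in several roles. A Cplx2 probe set read 5.11 in mutant mouse 43 and 5.17 in wild-type mouse 14, with the other mutants at 6.05 to 6.33 and the other wild-type mice at 6.20 to 6.40. The mean of these 2 arrays was -1.10 from that of the other 8 on the log2 scale. In Syt11 the dimmest of 5 probe sets was at -0.81 by the same measure. In the opposite direction, Sh3gl2 read 9.17 in mutant mouse 43 and 9.23 in wild-type mouse 14, with the other mutants at 8.32 to 8.69 and the other wild-type mice at 8.36 to 8.61, a difference of 0.73.

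Within Syt1 and Sh3gl2 both directions occurred, in different probe sets of 1 gene. The brightest Syt1 probe set differed by 0.42 on these 2 arrays and a dim one by -0.35. Without both arrays, 0 of the 105 probe sets passed (limma with Benjamini-Hochberg adjustment), and 4 had an unadjusted p under 0.05 (3.81%), all lower in the mutants, against 4.22% of all probe sets in either direction and 3% that were lower. The groups then did not overlap in 4 (3.81%), in Syt5, Sypl and Nsf lower and in Rims2 higher, against 2.8% of all probe sets.

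**Figure D4:**
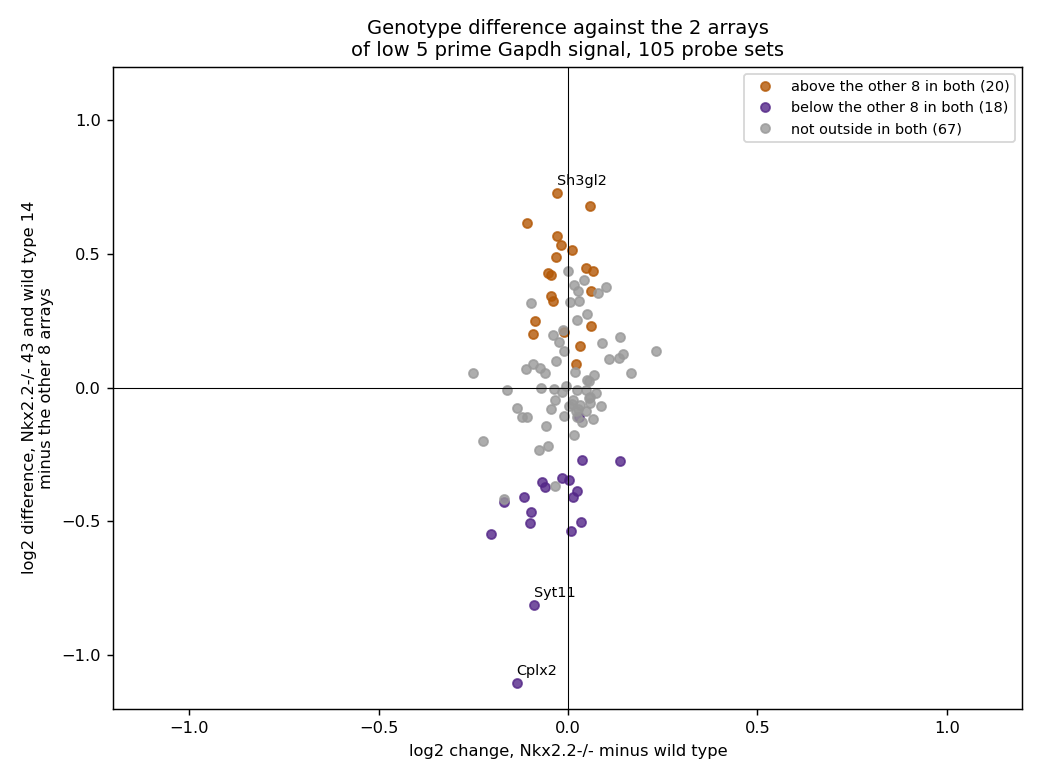
Log2 change between the genotypes (horizontal axis) and log2 difference between the 2 arrays of low 5 prime Gapdh signal and the other 8 (vertical axis) for the 105 probe sets, coloured by whether both arrays lie above (20), below (18) or not outside (67) the other 8. The vertical spread, from -1.10 to 0.73, is wider than the horizontal one, from -0.25 to 0.23.

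The rest of the presynaptic pathway gave the same count. Of a list of 65 further presynaptic genes, among them other synaptotagmins, syntaxins, liprins, neurexins and endocytic adaptors, 60 were measured with 155 probe sets, and 0 passed (limma, Benjamini-Hochberg adjusted p of at least 0.9997). The median log2 change was -0.0082, and 5 probe sets (3.23%) had an unadjusted p under 0.05, all 5 lower, against 2.35% of all probe sets that were lower at that mark. The lowest unadjusted p was in Stxbp3, a Munc18 protein found mostly outside neurons. A dim probe set of it lay at 4.60, 4.59, 4.44, 4.69 and 4.69 in Nkx2.2-/- mice and 4.78, 4.72, 4.75, 4.92 and 4.93 in wild-type mice, a change of -0.22 (limma adjusted p = 0.9997), and its groups did not overlap.

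Vamp3, a vesicle SNARE of many tissues, had log2 changes of -0.14 and -0.15 in 2 probe sets. Erc1, an active zone scaffold, was at -0.12, Itsn1, the endocytic scaffold intersectin, at -0.23, and Vamp4, a SNARE of the Golgi and endosomes, at -0.20. None of these passed, and the groups overlapped in each. These are the probe sets of lowest p of their genes. The other probe sets ran from -0.03 to 0.07 for Erc1 and from -0.07 to 0.05 for Itsn1, were at -0.06 and -0.02 for Vamp4, ran from -0.16 to -0.01 for Vamp3, and the other of Stxbp3 was at 0.01.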

How the data were processed

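Expression was measured on 10 arrays, 1 a mouse, grouped by sample title. The authors deposited log2 values from RMA (per the submitters' processing notes), a method that removes background, equalises the arrays' distributions and gives 1 value a probe set, so it would hide a change shared by most genes. Its version and the probes' genome build are not given in the sources used here. Of 45101 probe sets 64 controls were left out. For the other 45037, limma 3.58.1 (lmFit, eBayes; R 4.3.3) tested genotype without covariates or a filter, with Benjamini-Hochberg adjustment at 0.05, and changes are Nkx2.2-/- minus wild type. The fit was tested on simulated data. Python 3.11.15 and pandas 2.3.3 made tables, matplotlib 3.10.9 the figures. The number of arrays limits the precision. Mice of 1 litter count as separate replicates.

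Probe sets named with values in every mouse were Nkx2-2, members with an unadjusted p under 0.05, the 4 highest and 4 lowest changes, and, in wild type, the brightest of each gene (highest mean over all arrays). Exceptions are marked. Of the further presynaptic genes the 6 of lowest p were named. The members and lists were chosen with earlier results of these data known. Alternatives were 2 normalizations, a filter, 2 gene summaries, 2 priors, array weights, 2 covariates, left-out arrays, single symbols and a threshold of 0.10. RefSeq promoters were matched by Entrez number.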

Additional observations from a re-analysis of the deposited data

Results flagged for a closer look

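Values of single mice far from the others of their group were sought in the 5 mice of each genotype, over 43 member probe sets and Nkx2-2, which made 88 groups. A mouse counted where its gap to the nearest other mouse, divided by the range of the group, was above Dixon's 95% critical value. Chance gives about 1 in 20 for independent groups not chosen by their values. Some probe sets here were named for large changes or low p, and all groups share the same arrays, so that rate is only a rough guide. Of the 10 found, 8 were on mutant array 43 or wild-type array 14, which have low 5 prime Gapdh signal.

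Wild-type mouse 14 was highest for Amph (ratio 0.877), at 9.06 against 8.62 to 8.68 in the other wild-type mice. It was highest for Nsf (0.808), at 10.16 against 9.63 to 9.73, and for Sv2b (0.801), at 7.96 against 7.42 to 7.53. So it was for Syn2 (0.795), at 8.79 against 8.21 to 8.33, and for Sh3gl2 (0.713), at 9.23 against 8.36 to 8.61. The same mouse was lowest for Vamp2 (0.840), at 8.99 against 9.46 to 9.55. Nkx2-2 itself was highest in it (0.798), at 6.88 against 6.42 to 6.51.

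Mutant mouse 43 was lowest for Syt5 (0.841), at 5.76 against 6.14 to 6.21 in the other mutants. Mutant mouse 22 was lowest for the dimmer Syt4 probe set (0.896), at 6.27 against 6.81 to 6.87. Wild-type mouse 21 was highest for a Syt7 probe set (0.834), at 7.40 against 7.12 to 7.17.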

How the results depend on the processing

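No presynaptic probe set or gene passed under any of the 23 alternative fits or at a threshold of 0.10 (lowest limma adjusted p 0.585), and none of the further presynaptic genes did. Nkx2-2 passed in each fit that gave it a value, with changes from -2.11 to -1.93. All 95% intervals of changes stayed between -1 and 1 in each fit but that with the Hox covariate (104 of 105). The median change over the set ran from -0.06 to 0.02. The SD between wild-type mice of the median level of the set was 0.153, which is a spread of levels and not the error of a change. Of 977 values for 43 named probe sets under the alternatives, 132 changed sign, and none passed before or after. The number with an unadjusted p under 0.05 was 2. It was 1 with a common median, a trend prior or a robust prior, and 0 with dimmer probe sets left out, with the brightest probe set of each gene or with probe sets averaged by gene. It was 7 with the Hox covariate (6.67%, against 4.64% of all probe sets) and 4 without mutant 43 and wild-type 14 (3.81%, against 4.22%). It was 4 with the Gapdh covariate and 4 without mutant 11 and wild-type 18. Leaving out each mouse gave 0 to 6, the highest without mutant 11 (5.71%, against 3.24% of all probe sets). It was 5 without wild-type 14, 1 without wild-type 18 and 0 without wild-type 15 or 21. The number whose groups did not overlap was 1. It was 0 with quantile normalization, the brightest probe set or the gene mean, 1 with a common median, but there a dim probe set of Vamp1 in place of that of Rims2, and 4 in both runs without a pair of arrays. Leaving out each mouse gave 1 to 4, with 3 without mutant 11, 4 without wild-type 14 and 2 without wild-type 18. Over all probe sets the share without overlap also rose with fewer arrays. It was 0.757% with all arrays, 1.42% without mutant 11 and 2.8% without mutant 43 and wild-type 14. No such share stands beside the counts of the other runs, which are not read as results about these genes. Without mouse 14 the wild-type means of the 38 brightest probe sets moved by -0.15 to 0.13. Leaving out 1 of 5 mice cannot move a mean by 1 SD of those mice, so the SD is no yardstick here. No paired analysis was possible because the labels do not give the litter of each mouse. Dim signal limits what the lower probe sets can show.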
